A study of Mus musculus with 31 samples.

Results

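The genes described here are 8 mouse aldo-keto reductases, Akr1c6, Akr1c12, Akr1c13, Akr1c14, Akr1c18, Akr1c19, Akr1c20 and Akr1d1, followed across the livers of 4 inbred strains with and without PF-04287881, a candidate antibiotic. They were chosen by name, as members of the Akr1c and Akr1d subfamilies, with earlier results of these data known. All 8 were found among the 18147 genes that carried a single symbol on the array, and all 8 were bright enough to be among the 12890 genes tested. Where a gene had several probe sets, the one with the highest overall mean stands for it. A probe set is a group of short oligonucleotides on the array that together report 1 transcript.

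Female mice of the strains MA/MyJ, SM/J, NZW/LacJ and WSB/EiJ, 8 to 10 weeks old at the start, received either sterile water as vehicle or PF-04287881 at 600 mg/kg by oral gavage once a day for 7 days. The left liver lobe was taken 24 hours after the last dose, and its total RNA was hybridised to 1-colour Affymetrix arrays. The 31 arrays form 8 groups of 4 animals, apart from the treated WSB/EiJ group, which has 3. The labels code MA/MyJ and NZW/LacJ for Kupffer cell vacuolation and NZW/LacJ for single cell necrosis. No transgene or deletion is named for any group, all animals are of 1 sex, and all treated animals received the same dose.

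Aldo-keto reductases reduce aldehydes and ketones to alcohols with NADPH. Members of the AKR1C subfamily act on keto groups of steroid hormones, which sets how much active androgen, oestrogen or progestin a cell sees, and several also reduce xenobiotic carbonyls. Akr1d1 is the steroid 5β-reductase, which saturates the ring double bond of bile acid precursors and of steroid hormones, and the liver is its main site. Akr1c6 is the mouse 17β-hydroxysteroid dehydrogenase of this family, Akr1c14 is a 3α-hydroxysteroid dehydrogenase, and Akr1c18 is the 20α-hydroxysteroid dehydrogenase that inactivates progesterone. Akr1c12, Akr1c13, Akr1c19 and Akr1c20 are less characterised dehydrogenases of the same subfamily.

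In the mouse reference annotation, 7 of the 8 genes lie side by side on chromosome 13, in the order Akr1c14, Akr1c18, Akr1c13, Akr1c19, Akr1c12, Akr1c6 and Akr1c20, followed by Akr1c21. These 8 protein-coding genes are all Akr1c genes, and Akr1d1 lies apart on chromosome 6. Upstream sequence was available from RefSeq (GRCm38.p6, the reference strain and none of the 4 strains measured) for 7 of the 8 genes, Akr1c20 being the exception. The 250 bases before the transcription start of Akr1c12 and Akr1c13 were 92.5% identical, against a median of 47.5% over the 21 pairs of genes and a lowest value of 44.2%. The next most alike pairs were Akr1c13 with Akr1c19 at 58.7% and Akr1c12 with Akr1c19 at 56.9%. The 3 windows are shown because they hold the most alike pair and its next nearest. As described further on, their genes were lower in treated livers (Akr1c13 only with 1 array left out), yet only Akr1c12 was low in NZW/LacJ. Akr1c14 was also lower with that array left out, and its window was only 46.0% to 47.2% identical to these 3. Each window shown reads 5′ to 3′ towards the start site. Capitals mark the core of the palindrome bound by HNF1 factors, a motif that was searched on both strands after these letters had been seen.
Akr1c12: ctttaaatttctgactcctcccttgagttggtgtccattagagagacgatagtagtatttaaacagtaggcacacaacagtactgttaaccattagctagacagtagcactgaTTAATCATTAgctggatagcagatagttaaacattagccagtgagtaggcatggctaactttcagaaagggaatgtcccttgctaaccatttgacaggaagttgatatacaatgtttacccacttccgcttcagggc
Akr1c13: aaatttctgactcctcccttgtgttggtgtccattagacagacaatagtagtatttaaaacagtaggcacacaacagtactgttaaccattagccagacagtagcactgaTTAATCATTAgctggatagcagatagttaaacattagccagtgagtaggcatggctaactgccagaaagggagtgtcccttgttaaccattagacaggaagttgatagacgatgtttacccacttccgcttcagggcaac
Akr1c19: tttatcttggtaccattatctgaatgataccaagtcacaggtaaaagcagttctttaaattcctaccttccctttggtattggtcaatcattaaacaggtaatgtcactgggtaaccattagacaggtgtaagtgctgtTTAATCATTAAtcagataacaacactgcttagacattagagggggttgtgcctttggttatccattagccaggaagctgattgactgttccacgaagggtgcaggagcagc
The windows lie at chr13:4279400-4279649 on the minus strand for Akr1c12, at chr13:4190937-4191186 on the plus strand for Akr1c13 and at chr13:4233490-4233739 on the plus strand for Akr1c19. The HNF1 core occurred in these 3 of the 7 windows, and so not in that of Akr1c14, and in 127 of all 32851 windows of the same length, or 0.387%. Before Akr1c19 it matched once on each strand, and the 2 matches overlap in the same stretch of capitals. These shares are no test of enrichment, since the motif was picked from these windows and those of Akr1c12 and Akr1c13 are nearly the same. The core of the antioxidant response element, TGACNNNGC, was in 0 of the 7 windows and in 10.2% of all windows, and the direct repeat of nuclear receptor motifs with 1 base between them was in 0 of the 7 and in 0.0335% of all. A match is a run of letters in the reference strain and not a measured site.

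Values are log2 units throughout, so a difference of 1 is a doubling, and a level is read for 1 probe set at a time, since probe sets differ in brightness for the same amount of RNA. In tissue RNA, fewer cells of a type and less RNA per cell cannot be told apart. Hepatocyte markers were bright and level across the study, their summed signal (9 of 10 listed genes measured) lying between 17.11 and 17.29 on all 31 arrays. Kupffer cell markers moved with the drug, 9 of 10 being higher on average over the strains (median difference 0.86 in log2 units). So did markers of monocytes and lipid-laden macrophages, 6 of 8 tested being higher (median 1.09), where 13.3% of all genes were higher. Markers of sinusoidal endothelium were lower in 8 of 10 (median -0.44), against 8.92% of all genes. Summed Kupffer cell markers overlapped between treated and vehicle livers in NZW/LacJ (12.99 to 14.79, vehicle 13.05 to 13.60) and SM/J, and not in MA/MyJ or WSB/EiJ. Those of sinusoidal endothelium overlapped in NZW/LacJ (12.53 to 13.34, vehicle 12.86 to 12.98) and MA/MyJ, met at 12.57 in SM/J and were apart in WSB/EiJ. Of 7 ovary and adrenal genes only Star and Cyp17a1 were bright enough to test, and the summed signal of the 5 measured differed between strains under vehicle, from 10.11 to 10.45 in NZW/LacJ to 13.60 to 13.76 in WSB/EiJ. It was lower in treated animals of SM/J (12.22 to 12.63, vehicle 12.85 to 13.10) and WSB/EiJ (12.73 and 13.09, and 10.17 on the array described next). The part of these cells in the results below was not tested.

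One array stood apart from its label. On a scale of 53 probe sets on which 1 is the mean of vehicle-treated WSB/EiJ and 0 that of the other strains, the array labelled WSB/EiJ treated animal 3 sat at -0.007, while on the corresponding scale of 13 probe sets for NZW/LacJ it sat at 1.005. On a scale of 300 genes that separates treated from vehicle NZW/LacJ, it sat at 0.069, just above the vehicle arrays of that strain (-0.052 to 0.062) and far from the treated ones (0.935 to 1.075). The other treated WSB/EiJ arrays, at 0.107 and 0.204, and the WSB/EiJ vehicle arrays, at 0.202 to 0.363, also lay low on it, so this scale alone does not separate a vehicle NZW/LacJ liver from a WSB/EiJ one. Its Akr1c18 value was 11.16, where NZW/LacJ vehicle animals ran from 10.92 to 11.48 and the other treated WSB/EiJ animals were at 8.27 and 8.17. Its Akr1c12 value was 5.39, where NZW/LacJ vehicle animals ran from 5.38 to 5.84 and the other treated WSB/EiJ animals were at 7.49 and 7.56. Where a call on the 8 genes changed when this array was left out, it is given both ways. WSB/EiJ vehicle animal 4 lay lower than the other WSB/EiJ arrays on the same strain scale, at 0.860 against 0.941 to 1.094, and the calls on Akr1c6 that changed without it are given with that gene.

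Differences between strains came first in size. Among vehicle-treated livers 6 of the 8 genes differed between strains by a moderated F test in limma, against 56.5% of all genes tested. They were Akr1c6, Akr1c12, Akr1c14, Akr1c18, Akr1c20 and Akr1d1. Without the array labelled WSB/EiJ treated animal 3, whose spread enters the shared error, all 8 passed, against 63% of all genes. The distance between the highest and the lowest strain mean ran from 0.68 for Akr1c13 to 3.36 for Akr1c18, and its median over all genes tested was 0.39. Taken in pairs, NZW/LacJ and WSB/EiJ differed in 7 of the 8 genes (38.4% of all genes tested), MA/MyJ and NZW/LacJ in 4 (24.2%), SM/J and WSB/EiJ in 3 (32.9%), MA/MyJ and WSB/EiJ in 2 (28.1%) and NZW/LacJ and SM/J in 2 (20.9%). MA/MyJ and SM/J differed in 0 by limma (16.9%), also at an unadjusted p under 0.05. Leaving out the array labelled WSB/EiJ treated animal 3 raised 4 of these counts, to 5 for SM/J and WSB/EiJ (38.7%), 4 for MA/MyJ and WSB/EiJ (33.8%), 4 for NZW/LacJ and SM/J (26.2%) and 5 for MA/MyJ and NZW/LacJ (30%). NZW/LacJ and WSB/EiJ stayed at 7 (43.7%) and MA/MyJ and SM/J at 0 (22.1%), with 2 at an unadjusted p under 0.05, Akr1c18 and Akr1d1.

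Akr1c18, which inactivates progesterone, was between 7.68-fold and 10.3-fold higher in NZW/LacJ than in the other strains. Vehicle-treated NZW/LacJ livers read 11.21, 10.93, 11.48 and 10.92. The MA/MyJ livers read 7.56, 8.09, 7.98 and 7.80, the SM/J livers 7.90, 8.07, 8.20 and 8.60, and the WSB/EiJ livers 7.58, 7.77, 7.54 and 8.21. The lowest NZW/LacJ value was more than 2 log2 units above the highest of the others, while the other 3 strains overlapped each other. The means were 11.14 ± 0.27 (SD, n = 4) in NZW/LacJ, 8.20 ± 0.30 in SM/J, 7.86 ± 0.23 in MA/MyJ and 7.77 ± 0.31 in WSB/EiJ. NZW/LacJ exceeded WSB/EiJ 10.3-fold (3.36 ± 0.36, SE, limma adjusted p = 2.8e-07), MA/MyJ 9.7-fold (adjusted p = 2.77e-07) and SM/J 7.68-fold (adjusted p = 1.29e-06). The neighbours below it in the order, SM/J, MA/MyJ and WSB/EiJ, did not differ beyond their spread with all arrays in the fit, although SM/J exceeded WSB/EiJ by 0.42 (adjusted p = 0.0246) once the array labelled WSB/EiJ treated animal 3 was left out. Only 59 of the 12890 genes had a wider range of vehicle means. A single probe set reports Akr1c18 alone, and a strain variant under its oligonucleotides was not tested.

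Akr1c12 ran the other way, about 7-fold to 10-fold lower in NZW/LacJ. Its vehicle values were 5.54, 5.84, 5.61 and 5.38 in NZW/LacJ, all under 6.485, the median of all probe-set values, so that the gene was tested through its signal in the other strains. MA/MyJ livers read 8.04, 9.09, 9.09 and 8.77, SM/J livers 8.79, 8.99, 8.87 and 8.74, and WSB/EiJ livers 8.68, 8.39, 8.17 and 8.39. NZW/LacJ stood apart from every other animal and the remaining strains overlapped. The mean of 5.59 ± 0.19 (SD, n = 4) in NZW/LacJ was 9.54-fold below SM/J (8.85 ± 0.11, limma adjusted p = 1.64e-08), 8.91-fold below MA/MyJ (8.75 ± 0.50, adjusted p = 3.01e-08) and 7.04-fold below WSB/EiJ (8.41 ± 0.21, adjusted p = 2.85e-07). A range this wide was exceeded by 65 genes. This probe set is the only one that the annotation gives to Akr1c12 alone, and less transcript cannot be told apart from a strain variant under its oligonucleotides.

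Akr1c13, whose upstream window is nearly the same, showed no such loss. Its vehicle values in NZW/LacJ, 11.44, 11.29, 11.30 and 11.36, were above every vehicle value of the other strains. MA/MyJ livers read 10.74, 10.99, 10.99 and 10.90, SM/J livers 10.84, 10.96, 10.96 and 10.91, and WSB/EiJ livers 10.80, 10.80, 10.24 and 10.85. The F test did not pass with all arrays (adjusted p = 0.0788), and passed when the array labelled WSB/EiJ treated animal 3 was left out (adjusted p = 0.00013) or treated animal 1 of that strain. The pair NZW/LacJ and WSB/EiJ differed in both fits, by 0.68 ± 0.23 (SE, limma adjusted p = 0.0229) with all arrays and at adjusted p = 2.61e-05 without that array, where NZW/LacJ also exceeded MA/MyJ (adjusted p = 0.0038) and SM/J (adjusted p = 0.00489). A probe set that the annotation assigns to both Akr1c12 and Akr1c13 gave vehicle means of 11.57 ± 0.09 in NZW/LacJ, 11.61 ± 0.25 in WSB/EiJ, 11.85 ± 0.18 in MA/MyJ and 11.92 ± 0.12 in SM/J (SD, n = 4 each), with an F test at adjusted p = 0.0599. Without the array that stands apart this F test passed (adjusted p = 0.01), NZW/LacJ lying 0.35 below SM/J (adjusted p = 0.0145) and 0.28 below MA/MyJ (adjusted p = 0.0477), and SM/J 0.32 above WSB/EiJ (adjusted p = 0.0197). The shared probe set had NZW/LacJ and WSB/EiJ 0.04 apart, where the Akr1c12 probe set had them 2.82 apart.

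**Figure D1:**
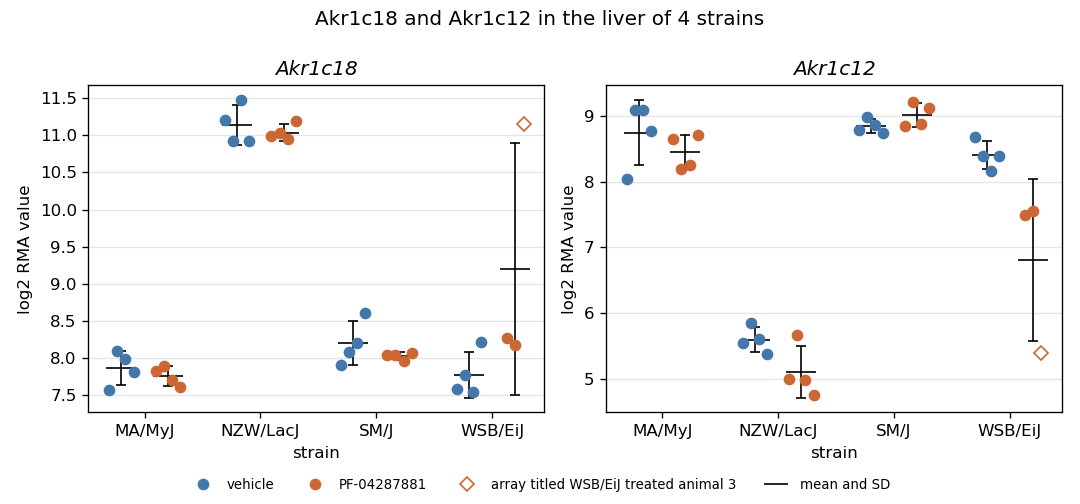
Log2 RMA values of Akr1c18 (left) and Akr1c12 (right) on the 31 arrays, by strain, with vehicle in blue and PF-04287881 in orange, and black bars for the group mean and SD. NZW/LacJ is high in Akr1c18 (vehicle mean 11.14) and low in Akr1c12 (5.59), and the array labelled WSB/EiJ treated animal 3 (open diamond) lies at 11.16 and 5.39, at the level of NZW/LacJ and away from the other WSB/EiJ animals.

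Akr1c6, the 17β-hydroxysteroid dehydrogenase, was near 14 in 3 strains and was lower and more variable in WSB/EiJ. Vehicle values ran from 13.81 to 14.05 in MA/MyJ, from 13.71 to 13.99 in NZW/LacJ and from 13.88 to 13.95 in SM/J. The WSB/EiJ livers read 11.67, 11.17, 9.48 and 13.28. All 4 were below every other vehicle value, but they spread over nearly 4 log2 units. The WSB/EiJ mean of 11.40 ± 1.56 (SD, n = 4) lay 5.87-fold below MA/MyJ (2.55 ± 0.45, SE, limma adjusted p = 0.000126), 5.64-fold below NZW/LacJ and 5.72-fold below SM/J, whose means lay within 0.06 of each other. Without vehicle animal 4 the WSB/EiJ mean was 10.77 ± 1.15.

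Akr1c20 and Akr1d1 were also lowest in WSB/EiJ. For Akr1c20 the WSB/EiJ vehicle livers read 10.28, 9.64, 8.56 and 11.89. Values in MA/MyJ were 11.40, 12.06, 11.98 and 11.88, in NZW/LacJ 11.73, 11.55, 11.82 and 11.74, and in SM/J 11.53, 11.96, 11.98 and 12.05. Animal 4 of WSB/EiJ thus lay within the range of the other strains and the remaining 3 animals below it. The WSB/EiJ mean of 10.09 ± 1.39 (SD, n = 4) was 3.45-fold below SM/J (limma adjusted p = 0.00554), 3.34-fold below MA/MyJ (adjusted p = 0.00753) and 3.07-fold below NZW/LacJ (adjusted p = 0.00958). The F test did not pass without WSB/EiJ vehicle animal 3 (adjusted p = 0.0639). The second Akr1c20 probe set also had its lowest vehicle mean in WSB/EiJ, 7.52 ± 1.36, against 9.11 ± 0.11 in MA/MyJ, 8.52 ± 0.07 in SM/J and 8.49 ± 0.08 in NZW/LacJ, and of these only the difference from MA/MyJ passed with all arrays (adjusted p = 0.00636). All 3 passed without the array labelled WSB/EiJ treated animal 3 (adjusted p = 0.0302 for SM/J and 0.0312 for NZW/LacJ).

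The bile acid enzyme Akr1d1 had its highest and tightest vehicle values in NZW/LacJ, at 12.02, 11.96, 12.05 and 12.00. SM/J livers read 10.79, 11.82, 11.74 and 12.02, MA/MyJ livers 10.43, 11.18, 11.40 and 10.37, and WSB/EiJ livers 10.54, 9.86, 9.06 and 11.26. The order of the means was NZW/LacJ at 12.01 ± 0.04, SM/J at 11.59 ± 0.55, MA/MyJ at 10.84 ± 0.52 and WSB/EiJ at 10.18 ± 0.94 (SD, n = 4 each). Adjacent strains in this order did not differ beyond their spread. NZW/LacJ exceeded WSB/EiJ 3.56-fold (1.83 ± 0.40, SE, limma adjusted p = 0.000833) and MA/MyJ 2.24-fold (adjusted p = 0.0343), and SM/J exceeded WSB/EiJ 2.67-fold (adjusted p = 0.00793). The second Akr1d1 probe set passed in the same 3 pairs, with differences of 1.67, 1.25 and 1.09.

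Akr1c14, the 3α-hydroxysteroid dehydrogenase, was again lowest in WSB/EiJ. Vehicle livers read 11.65, 11.41, 10.27 and 12.12 there, 12.12, 12.28, 12.39 and 12.33 in SM/J, 12.37, 12.34, 12.63 and 12.58 in MA/MyJ, and 12.94, 12.66, 12.83 and 13 in NZW/LacJ. The NZW/LacJ values were above all others. The 1.5 ± 0.47 (SE) between NZW/LacJ and WSB/EiJ passed (2.82-fold, limma adjusted p = 0.0138), whereas the F test over the 4 strains, at adjusted p = 0.0452, did not pass when any 1 of 27 of the 31 arrays was left out. Without the array labelled WSB/EiJ treated animal 3 its adjusted p was 3.7e-05, and WSB/EiJ was then also below MA/MyJ (adjusted p = 0.000415) and SM/J (adjusted p = 0.00239). Akr1c19 covered a smaller range, from 10.33 in MA/MyJ to 11.34 in NZW/LacJ, with SM/J at 10.75 and WSB/EiJ at 11.10, and its F test did not pass with all arrays (adjusted p = 0.0679) but did when any 1 of the 3 treated WSB/EiJ arrays was left out (adjusted p = 0.000859 for the array that stands apart). Without that array MA/MyJ was below WSB/EiJ (adjusted p = 0.0048) and SM/J below NZW/LacJ (adjusted p = 0.0336), which did not pass with it.

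In WSB/EiJ, the vehicle animals kept 1 order in 4 of the genes. Akr1c6, Akr1c14, Akr1c20 and Akr1d1 were all highest in animal 4, followed by animal 1, animal 2 and animal 3. The distance from animal 3 to animal 4 was wide in each of them, Akr1c6 going from 9.48 to 13.28 and Akr1d1 from 9.06 to 11.26. Hepatocyte markers did not follow that order, with summed levels of 17.24 in animals 1 and 3, 17.29 in animal 2 and 17.18 in animal 4. Kupffer cell markers summed to 11.76, 11.36, 12.08 and 11.99 in animals 1 to 4. The order was not confined to these genes. On the WSB/EiJ scale of 53 probe sets, animals 4, 1, 2 and 3 rose from 0.860 to 1.006, 1.055 and 1.094. On the scale of 300 genes they fell from 0.363 to 0.276, 0.253 and 0.202. Akr1c13 and Akr1c18 were also highest in animal 4 and lowest in animal 3. Akr1c12 was highest in animal 1 (8.68), and Akr1c19 was highest in animal 2 (11.43) and lowest in animal 4 (10.69). How many of all genes tested share the order was not counted. The cause of the order was not tested.

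**Figure D2:**
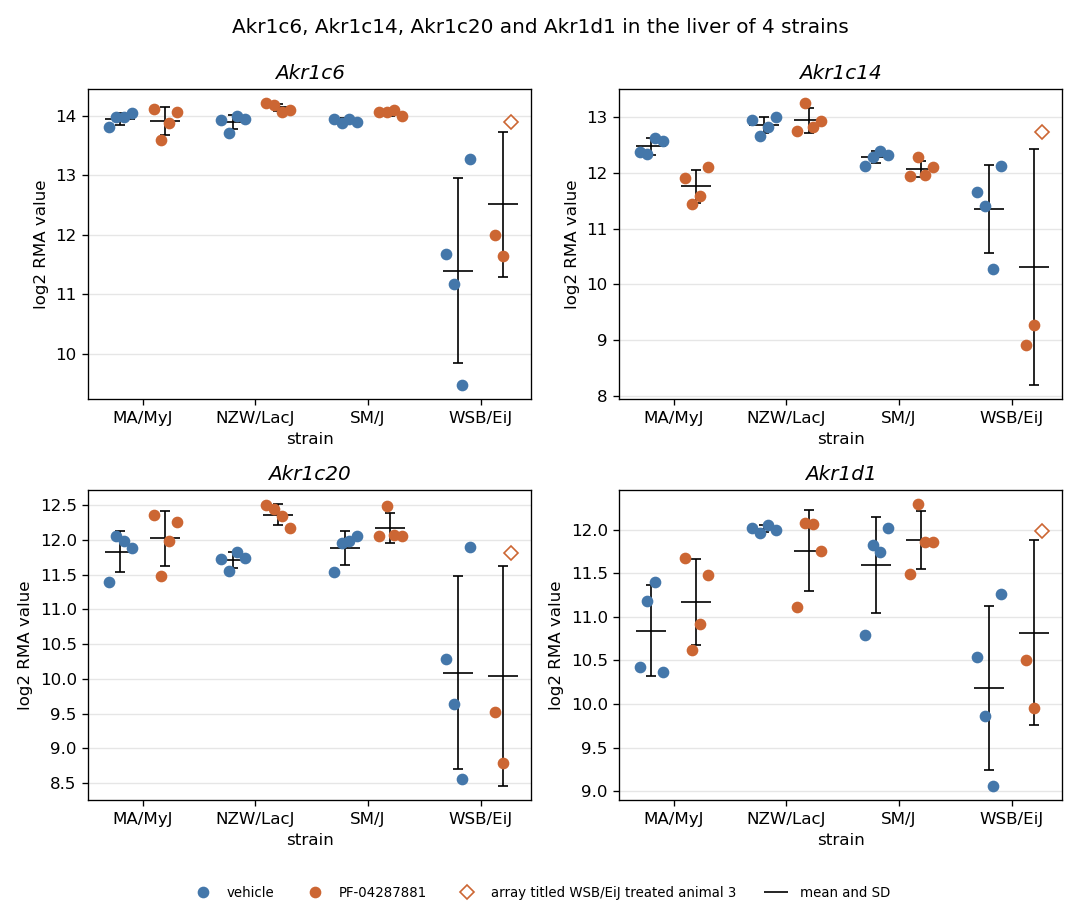
Log2 RMA values of Akr1c6, Akr1c14, Akr1c20 and Akr1d1 on the 31 arrays, by strain, with vehicle in blue, PF-04287881 in orange and black bars for the group mean and SD. The WSB/EiJ vehicle animals run from 9.48 to 13.28 in Akr1c6, while the other strains hold to between 13.71 and 14.05. The vertical axes do not start at 0.

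Of the drug effects, the fall of Akr1c19 was the one that passed most widely. In the mean of the 4 within-strain differences, 2 of the 8 genes were lower in treated livers, Akr1c19 and Akr1c12, against 8.92% of all genes tested. Without the array labelled WSB/EiJ treated animal 3, 4 of the 8 were lower, Akr1c12, Akr1c13, Akr1c14 and Akr1c19, against 14.2% of all genes. None was higher by limma in either fit, also at an unadjusted p under 0.05, where 13.3% and 18.4% of all genes were called higher. Akr1c6 was higher on average when WSB/EiJ vehicle animal 4 was left out instead (0.52, adjusted p = 0.0357) or both arrays were (0.35, adjusted p = 0.0485). The median of the 8 mean differences was -0.01 with all arrays and -0.18 without that array, beside 0.00 and 0.01 for all genes tested.

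Akr1c19 in MA/MyJ went from vehicle values of 9.86, 10.59, 10.81 and 10.07 to treated values of 9.57, 9.05, 8.80 and 8.67. In NZW/LacJ it went from 11.42, 11.19, 11.33 and 11.43 to 10.51, 10.61, 10.66 and 10.67. In both strains every treated liver lay below every vehicle liver, as in 6.09% and 11.9% of all genes. SM/J livers went from 10.49, 10.49, 10.98 and 11.04 to 9.78, 10.20, 9.88 and 10.56, where the groups overlapped in 1 treated animal. WSB/EiJ vehicle livers read 11.22, 11.43, 11.06 and 10.69, and the treated ones 8.90, 8.99 and, on the array that stands apart, 11.46. The first 2 lay well below every vehicle animal and the last above all of them.

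The mean drug effect on Akr1c19 was -1.0 ± 0.18 (SE, limma adjusted p = 0.0002), or 2-fold lower, and -1.21 ± 0.11 (adjusted p = 1.17e-08), or 2.31-fold lower, without the array labelled WSB/EiJ treated animal 3. By strain it was -1.31 ± 0.35 in MA/MyJ (adjusted p = 0.0294), -0.73 ± 0.35 in NZW/LacJ (adjusted p = 0.14), -0.65 in SM/J (adjusted p = 0.409) and -1.31 ± 0.38 in WSB/EiJ (adjusted p = 0.0151). Without that array the strains stood at adjusted p = 0.0671 in SM/J, 0.00918 in NZW/LacJ and 0.000198 in MA/MyJ, and WSB/EiJ fell by 2.15 ± 0.25 (4.45-fold, adjusted p = 4.81e-07). The strain-by-treatment F test did not pass with all arrays (adjusted p = 0.557) and passed without it (F = 9.03, adjusted p = 0.00239). The MA/MyJ call did not hold when any 1 of 5 MA/MyJ arrays was left out, where the effect lay between -1.32 and -1.15, and the WSB/EiJ call did not hold without treated animal 1 or 2. The NZW/LacJ difference passed in a fit on that strain's arrays alone (adjusted p = 0.000228).

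Akr1c12 fell chiefly in WSB/EiJ. The 3 treated WSB/EiJ livers read 7.49, 7.56 and 5.39, all below the vehicle values of 8.17 to 8.68, as in 7.8% of all genes. The effect was -1.59 ± 0.33 (SE, 3.02-fold, limma adjusted p = 0.00122) with all arrays, and -0.88 ± 0.23 (1.85-fold, adjusted p = 0.00475) without the third treated array. Treated MA/MyJ livers read 8.65, 8.19, 8.26 and 8.71 and treated SM/J livers 8.85, 9.22, 8.88 and 9.13, both overlapping their vehicle values, with effects of -0.30 and 0.17. Treated NZW/LacJ livers read 5.00, 5.66, 4.98 and 4.75, a difference of -0.49 (adjusted p = 0.269) among values below the array median. The effect differed between strains by the interaction F test (F = 5.41, adjusted p = 0.0311, and F = 4.43, adjusted p = 0.0403, without that array). This was the only 1 of the 8 genes to pass it with all arrays, against 19.4% of all genes. Akr1c12 did not pass this F test without WSB/EiJ vehicle animal 1. Nor did it with the array labelled WSB/EiJ treated animal 3 and WSB/EiJ vehicle animal 4 both left out (F = 4.13, adjusted p = 0.0501). With the array labelled WSB/EiJ treated animal 3 left out, 4 of the 8 genes passed it, against 32.4% of all genes.

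The drug response of Akr1c13 was seen in WSB/EiJ once the array that stands apart was left out. The treated WSB/EiJ livers read 9.38, 9.83 and, on that array, 11.40, against vehicle values of 10.24 to 10.85. The difference was -0.46 with all arrays (limma adjusted p = 0.201) and -1.06 ± 0.14 (SE, 2.09-fold, adjusted p = 1.91e-06) without it. NZW/LacJ treated livers, at 10.94, 11.27, 11.18 and 11.05, lay below every vehicle animal of the strain, by 0.24 on average, which did not pass except in a fit on that strain's arrays alone (adjusted p = 0.0493). Treated MA/MyJ livers read 10.70, 10.52, 10.55 and 10.79 and treated SM/J livers 10.65, 10.88, 10.83 and 10.92, and both groups overlapped their vehicle animals. The probe set shared by Akr1c12 and Akr1c13 fell on average by 0.31 ± 0.07 (adjusted p = 0.00178) with all arrays and by 0.38 ± 0.06 (adjusted p = 1.38e-05) when the array labelled WSB/EiJ treated animal 3 was left out. In WSB/EiJ alone it fell by 0.50 (adjusted p = 0.0178) and 0.76 (adjusted p = 7.18e-05) in these fits.

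**Figure D3:**
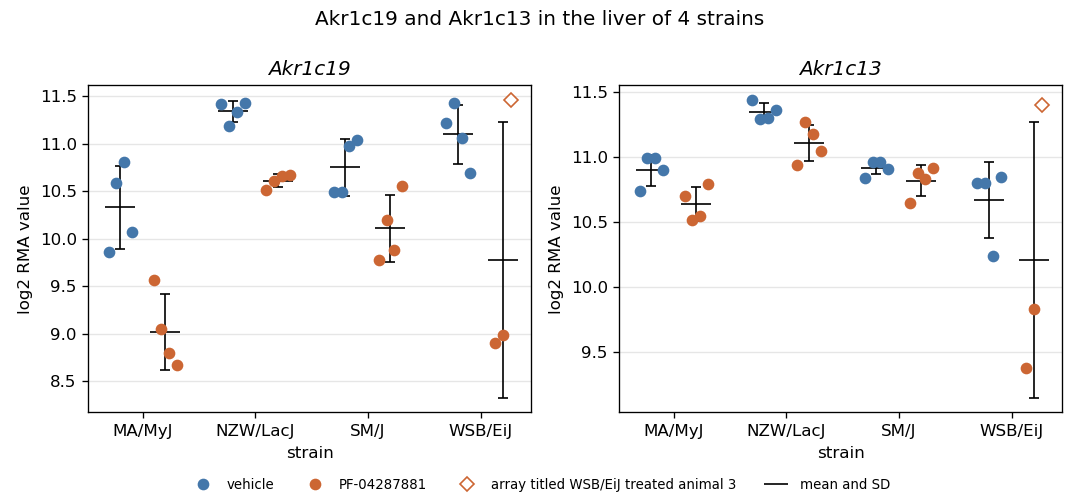
Log2 RMA values of Akr1c19 (left) and Akr1c13 (right) on the 31 arrays, by strain, with vehicle in blue, PF-04287881 in orange and black bars for the group mean and SD. In Akr1c19 the treated animals of MA/MyJ and NZW/LacJ all lie below the vehicle animals, and in WSB/EiJ 2 treated animals lie at 8.90 and 8.99 while the open diamond, the array labelled treated animal 3, lies at 11.46.

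Akr1c14 likewise fell in WSB/EiJ once that array was left out. Its treated values there were 8.91, 9.28 and, on the array that stands apart, 12.74, against vehicle values from 10.27 to 12.12. The difference of -1.06 ± 0.51 (SE) with all arrays did not pass (limma adjusted p = 0.15), and without that array Akr1c14 fell by 2.27 ± 0.28 (4.82-fold, adjusted p = 1.05e-06). It also passed with that array kept and WSB/EiJ vehicle animal 3, the lowest of the vehicle animals, left out. Treated MA/MyJ livers, at 11.91, 11.45, 11.58 and 12.10, were all below the vehicle animals of the strain. That difference of -0.72 ± 0.47 did not pass (adjusted p = 0.446), nor at ± 0.23 without the array labelled WSB/EiJ treated animal 3 (adjusted p = 0.0543). It passed when that array and WSB/EiJ vehicle animal 4 were both left out (adjusted p = 0.0221) and in a fit on the MA/MyJ arrays alone (adjusted p = 0.0177). In NZW/LacJ the treated livers read 12.75, 13.25, 12.82 and 12.93 and in SM/J 11.95, 12.28, 11.97 and 12.10, differences of 0.08 and -0.21. The interaction F passed only without that array among the fits that left out 1 array (F = 15.87, adjusted p = 0.000112).

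Akr1c18 gave the opposite sign in WSB/EiJ, and its call did not hold when 1 array alone was left out. Treated WSB/EiJ livers read 8.27, 8.17 and 11.16, the last being the array at the NZW/LacJ level. The difference of 1.43 ± 0.39 (SE, 2.69-fold, limma adjusted p = 0.0116) became 0.45 ± 0.18 (adjusted p = 0.0574) without it. With WSB/EiJ vehicle animal 4 left out as well, the vehicle mean was 7.63 ± 0.12 (SD, n = 3) and Akr1c18 passed again as higher. Treated livers of the other strains ran from 7.60 to 7.89 in MA/MyJ, 10.95 to 11.20 in NZW/LacJ and 7.95 to 8.06 in SM/J. Differences from vehicle there were -0.11, -0.09 and -0.18, so the wide strain difference was present under the drug as well.

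Akr1c6 and Akr1c20 had no drug effect in NZW/LacJ or SM/J that passed with all arrays, although the treated values of their brightest probe sets lay above the vehicle values. Treated values of Akr1c6 were 14.21, 14.18, 14.07 and 14.10 in NZW/LacJ and 14.06, 14.06, 14.10 and 13.99 in SM/J, all above the vehicle animals of the strain, as in 22% and 6.48% of all genes, with differences of 0.24 and 0.14 that did not pass. Treated values of Akr1c20 were 12.50, 12.45, 12.34 and 12.17 in NZW/LacJ and 12.06, 12.48, 12.07 and 12.06 in SM/J, with differences of 0.66 ± 0.48 (SE, limma adjusted p = 0.361) and 0.29. Again no treated value fell among the vehicle values, and neither difference passed. Fitted on the NZW/LacJ arrays alone, the differences of 0.24 in Akr1c6 and 0.66 in Akr1c20 passed in that strain (limma adjusted p = 0.0351 and 0.000827). The second Akr1c20 probe set gave 0.38 in NZW/LacJ but -0.32 in SM/J, and -0.64 in MA/MyJ where the first gave 0.19, so the probe sets differ in sign in 2 strains and no direction is given for the gene there. In WSB/EiJ the treated values were 12.00, 11.64 and 13.90 for Akr1c6 and 9.52, 8.79 and 11.81 for Akr1c20, within or near the wide span of the vehicle animals. The Akr1c6 difference there was 1.11 with all arrays (adjusted p = 0.111) and 0.42 without the third treated array (adjusted p = 0.542), while it passed without vehicle animal 4 (1.74, adjusted p = 0.00299) or treated animal 2. Without vehicle animal 4 its interaction F also passed (F = 4.62, adjusted p = 0.0498).

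Akr1d1 showed no drug effect that passed in any strain. Treated livers read 11.68, 10.62, 10.92 and 11.48 in MA/MyJ, 11.11, 12.08, 12.07 and 11.76 in NZW/LacJ, 11.49, 12.29, 11.86 and 11.86 in SM/J, and 10.51, 9.95 and 11.99 in WSB/EiJ. All 4 groups overlapped their vehicle animals. The differences were 0.33, -0.25, 0.28 and 0.64, the last being 0.05 without the array labelled WSB/EiJ treated animal 3.

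Counted by strain, the calls among the 8 genes were few. In MA/MyJ 1 gene was lower, Akr1c19, against 0.978% of all genes tested, and 2.09% without the array labelled WSB/EiJ treated animal 3. NZW/LacJ had 0 of the 8, where 21.5% of all genes passed in either direction, and without that array 1 was lower, Akr1c19, against 8.35%. SM/J had 0 in both fits by limma, where 2.59% and 4.65% of all genes passed. At an unadjusted p under 0.05, Akr1c19 alone of the 8 passed in NZW/LacJ with all arrays, and in SM/J 0 did with all arrays and 1, Akr1c19, without that array. WSB/EiJ had 2 lower, Akr1c12 and Akr1c19, against 12.4%, and 1 higher, Akr1c18, against 6.91%. Without that array WSB/EiJ had 4 lower, Akr1c12, Akr1c13, Akr1c14 and Akr1c19, against 18.6%, and the values of these 4 in the remaining treated animals did not overlap those of the vehicle animals, against 20% of all genes. A fit on the WSB/EiJ arrays alone, with all 3 treated animals, called 0 of the 8 and 4 of all genes.

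**Figure D4:**
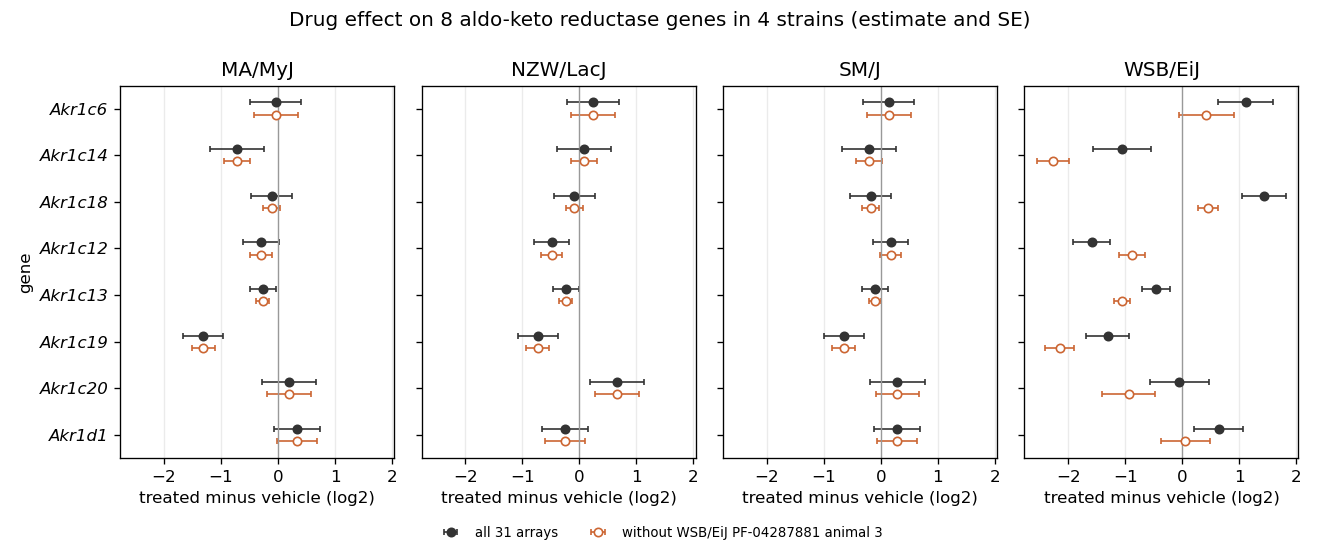
Treated minus vehicle difference (log2, with the model's SE) of the 8 genes in each strain, with all 31 arrays (black) and without the array labelled WSB/EiJ treated animal 3 (open orange). Akr1c19 lies below 0 in all 4 strains, and leaving out the array moves WSB/EiJ Akr1c14 from -1.06 to -2.27 and Akr1c18 from 1.43 to 0.45.

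The contrasts that follow the histology coding gave few calls. With all arrays in limma, 0 of the 8 genes differed between the strains coded for vacuolation and the others, against 17% of all genes, and 0 differed between NZW/LacJ, the strain coded for necrosis, and the rest, against 15.1%, also 0 each at an unadjusted p under 0.05. Without the array labelled WSB/EiJ treated animal 3, the drug effect was higher in the vacuolation strains for Akr1c13 (0.33, limma adjusted p = 0.0422) and Akr1c14 (0.92, adjusted p = 0.00633), against 18% of all genes called. That of Akr1c14 was higher in NZW/LacJ than in the others (1.14, adjusted p = 0.00318), against 15.6%. WSB/EiJ, on the other side of both contrasts, was the strain in which these genes fell most in that fit, by 1.06 for Akr1c13 and 2.27 for Akr1c14. On the side coded for vacuolation, Akr1c13 differed by -0.27 in MA/MyJ and -0.24 in NZW/LacJ. Akr1c14 differed there by -0.72 and 0.08.

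Of 14 other aldo-keto reductases listed, 8 were tested, and 2 were higher on average in treated livers, against 13.3% of all genes: Akr1a1, the aldehyde reductase, by 0.17 (limma adjusted p = 0.00179), and Akr1b10 by 0.21 (adjusted p = 0.018). None was lower by limma, and 7 of the 8 differed between strains under vehicle, against 56.5% of all genes. Kcnab1, a potassium channel subunit of the same fold, covered the widest range, 2.63, with WSB/EiJ at 7.95 ± 1.28 and the other strains between 5.32 and 5.86. The latter lay under 6.485, the median of all probe-set values, so that Kcnab1 was tested through its signal in WSB/EiJ. Akr1b8 was lowest in SM/J, at 6.77 ± 0.25. Group means of Akr1b10 ran from 6.34 to 7.12, near 6.485. They went from 6.70 under vehicle to 6.60 in treated livers of WSB/EiJ, and were higher under the drug in the other strains.

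Of 16 steroid dehydrogenases and reductases of other families tested, 9 differed between strains under vehicle, near the 56.5% of all genes. Hsd3b5, a 3β-hydroxysteroid dehydrogenase of mouse liver, was at 10.24 ± 0.13 in NZW/LacJ and between 4.89 and 5.83 elsewhere (SD, n = 4). NZW/LacJ was thus the highest strain in this gene as in Akr1c18. The other vehicle means lay under 6.485, the median of all probe-set values, so that Hsd3b5 was tested chiefly through its signal in NZW/LacJ. Hsd3b2 was at 8.69 in NZW/LacJ, 7.42 in MA/MyJ, 5.86 in SM/J and 4.08 in WSB/EiJ. On average over the strains 3 of the 16 were higher in treated livers, against 13.3% of all genes. They were Hsd3b3 by 0.75 (limma adjusted p = 0.01), Srd5a3 by 0.51 and Hsd17b7 by 0.29. Only 1 was lower, against 8.92% of all genes: Hsd11b1, the enzyme that regenerates active glucocorticoid, with -0.17. Among carbonyl reductases 2 of 12 were higher (Nqo2 by 0.34, and Cbr3 by 0.28 among group means of 6.25 to 6.77, near 6.485), against the same 13.3%. Another 2 were lower (Dhrs4 at -0.41 and Nqo1 at -0.37), against 8.92%. The fall of the quinone reductase Nqo1 lay in WSB/EiJ, at -1.52 ± 0.14 with all arrays and -1.47 ± 0.16 without the array labelled treated animal 3.

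Of 17 tested genes of bile acid synthesis, the pathway of Akr1d1, 7 were lower on average in treated livers and 0 higher by limma, against 8.92% and 13.3% of all genes. The array labelled WSB/EiJ treated animal 3 left out, 10 were lower, against 14.2%. The median over the list was -0.10, beside 0.00 over all genes tested. The members with the widest average falls were Acot8, a peroxisomal thioesterase (-0.42, limma adjusted p = 0.00141), Cyp39a1, an oxysterol hydroxylase (-0.39, adjusted p = 0.00538), Acox2, which shortens the side chain (-0.27), and Hsd17b4, another peroxisomal enzyme of side-chain oxidation (-0.25). Under vehicle 12 of the 17 differed between strains, against 56.5% of all genes, and Cyp7a1, the rate-limiting enzyme of bile acid synthesis, was highest in NZW/LacJ at 12.88 ± 0.12 (SD, n = 4) and lowest in WSB/EiJ at 10.59 ± 1.38, the same ends as Akr1d1. Of 13 transcription factors of steroid, bile acid and oxidant response, 1 was higher on average, the oestrogen receptor gene Esr1 by 0.38 (adjusted p = 0.00998), and its effect was 1.20 in NZW/LacJ. Under vehicle 8 of the 13 differed between strains, near the share of all genes, and Ppara, the fatty acid receptor, was lowest in WSB/EiJ, at 10.82 ± 0.32 against 11.56 to 12.02.

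Across the 31 arrays, the genes most alike to each member by Pearson correlation are given as a description, since the arrays share strains and treatments. Akr1c18 was most like Mgst2, a microsomal glutathione transferase (r = 0.987), Bace2 (0.972) and Rpgrip1 (0.970). Akr1c12 was most like Abhd1 (0.970), and Akr1c6 like Ghr, the growth hormone receptor (0.970), Gstt1 (0.965) and Klkb1 (0.965). Baat, which conjugates bile acids, was the gene most like both Akr1c14 (0.964) and Akr1c13 (0.948). Akr1c20 was most like Prelid1 (0.958) and Akr1d1 like Aldh4a1 (0.941). Akr1c19 had no close match, its highest being Uap1 at 0.80.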

How the data were processed

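The deposited values are log2 units per probe set, made by the authors with Affymetrix Power Tools and RMA per the submitters' processing notes (versions and genome build not given in the sources used here). RMA normalises by quantiles, so a change common to all genes is not seen. Values ran from 2.707 to 14.88, with array medians from 6.432 to 6.536.

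Symbols came from the platform annotation (34728 of 44721 probe sets carry 1 symbol, 872 several and 9121 none) and were updated through RefSeq. A gene is its single-symbol probe set with the highest mean, and was tested when above 6.485, the median of all values, in at least 3 arrays. limma 3.58.1 in R 4.3.3, with eBayes, fitted each of the 8 groups its own mean over 31 arrays. Tests are two-sided, Benjamini-Hochberg adjusted over 12890 genes, and passed under 0.05. Comparisons between strains reuse the same vehicle arrays as the drug effects. Labels name separate animals. The number of arrays limits the precision. The scripts were tested on simulated data.

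All 8 members are named. From each list, up to 4 called genes with the largest average effect and up to 4 with the largest vehicle range were taken, and 3 most-like genes per member, of which the text prints the closest. The members and lists were chosen with earlier results of these data known. Alternatives covered the dim-gene filter, probe-set choice, centring, variance trend, the replicate block, separate fits and leaving out arrays. No 2 arrays were duplicates (highest correlation 0.9962).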

Additional observations from a re-analysis of the deposited data

Results flagged for a closer look

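Of 56 group-by-gene sets of 4 animals, 2 held a value far from the others, where chance alone gives about 1 in 20. Akr1c13 read 10.24 in WSB/EiJ vehicle animal 3, while the other 3 animals read 10.80, 10.80 and 10.85. Akr1c20 read 12.48 in SM/J treated animal 2, while the others read 12.06, 12.07 and 12.06.

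The drug effect differed between strains for Akr1c12 with all arrays (F = 5.41). Without the array labelled WSB/EiJ treated animal 3 it differed also for Akr1c13 (F = 11.31), Akr1c14 (F = 15.87) and Akr1c19 (F = 9.03), with 4 of the 8 genes past the threshold against 32.4% of all genes tested.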

How the results depend on the processing

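Of the 72 results on single genes (8 genes, 9 comparisons), all kept their side of the threshold under array centring, a variance trend or the mean of all probe sets. Leaving the filter on dim genes out ended 1 call, Akr1c14 between vehicle strains (adjusted p = 0.0541), and no called value changed sign under any alternative run. Fits on 1 strain called 1063 genes in MA/MyJ and 4 in WSB/EiJ, and of the 8 genes 4 in NZW/LacJ, 2 in MA/MyJ and 0 in WSB/EiJ. Each such fit has fewer samples.

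Leaving out both the array labelled WSB/EiJ treated animal 3 and WSB/EiJ vehicle animal 4, chosen after seeing the data, called 1180 genes in MA/MyJ, 759 in SM/J, 3993 in WSB/EiJ, 4306 on average, 3464 for vacuolation, 2980 for necrosis and 4275 for the interaction. Of the 8 genes it called 2 in MA/MyJ, 2 in NZW/LacJ, 6 in WSB/EiJ, 5 on average, 1 for vacuolation, 2 for necrosis and 4 for the interaction. The last 4 were Akr1c13, Akr1c14, Akr1c18 and Akr1c19, and not Akr1c12. With 1 array left out at a time, calls over all genes ran from 279 to 941 in MA/MyJ, 2052 to 3436 in NZW/LacJ, 103 to 600 in SM/J and 1282 to 4180 in WSB/EiJ. They ran from 2527 to 4209 on average, 1824 to 3390 for vacuolation, 1463 to 2804 for necrosis and 2115 to 4180 for the interaction. Calls among the 8 ran from 0 to 1 in MA/MyJ, 0 to 1 in NZW/LacJ, 2 to 4 on average, 0 to 2 for vacuolation, 0 to 1 for necrosis and 0 to 4 for the interaction. The highest of each range came without the array labelled WSB/EiJ treated animal 3, except in MA/MyJ for the 8 genes. The cause was not tested.

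Animal numbers did not pair the samples: of 15 pairs of a vehicle and a treated animal with the same number in a strain, 4 had deviations correlated above 0.1, over a range from -0.52 to 0.41. The replicate block called 286 genes in SM/J, 494 in MA/MyJ, 2252 in WSB/EiJ, 2638 in NZW/LacJ and 2757 on average, and among the 72 results it ended 1 call, Akr1c14 between vehicle strains (adjusted p = 0.0551). The median signal, below which Akr1c12 lies in NZW/LacJ, limits what can be said of its drug response there.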
